A study of Mus musculus with 4 samples.

Results

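The 5 metabolic genes Pfkl, Pdxk, Agpat3, Slc19a1 and Pofut2 lie in the chromosomal segment that is duplicated in the Dp(10)2Yey mouse and were followed across the cell classes of the hippocampus. They were chosen by name for their roles in metabolism among the segment's 62 protein-coding genes, which run from Prmt2 to Pdxk and hold other enzymes such as Lss, out of 31055 genes in the count files. The samples were the hippocampi of 2 male Dp(10)2Yey mice (labelled Dp2Yey) and 2 male WT littermates, all 3 months old and on a C57BL/6J background, with 1 droplet-based single-cell library per mouse. Dp2Yey mice carry 3 copies of every gene of the 2.26 Mb segment on chromosome 10 in all their cells, and WT mice carry 2. The segment is matched by part of the human chromosome that is trisomic in Down syndrome. Gene dosage alone therefore corresponds to a Dp2Yey/WT ratio of 1.5, or 0.585 on the log2 scale, and the comparison asks in which cell classes each gene is found and how its ratio in each class stands against 1.5. Proteins and metabolites were not analysed here.

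Each gene has a known place in metabolism. Pfkl encodes the liver-type subunit of phosphofructokinase, which commits sugar phosphate to glycolysis, and shares that role with the muscle-type Pfkm and platelet-type Pfkp subunits. Pdxk encodes pyridoxal kinase, which turns the forms of vitamin B6 into the phosphorylated cofactor used by transaminases and by decarboxylases that make neurotransmitters. Agpat3 encodes an acyltransferase that adds a fatty acid to lysophosphatidic acid and other lysophospholipids, a step in making membrane phospholipids and triglycerides. Slc19a1 encodes the reduced folate carrier, which brings folates into cells, and belongs to a family whose other members, Slc19a2 and Slc19a3, carry thiamine. Pofut2 encodes a fucosyltransferase of the endoplasmic reticulum that adds fucose to thrombospondin type repeats of secreted proteins, whereas Pofut1 does so on the repeats of Notch receptors.

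In the GRCm38 build with GENCODE annotation, the members lie on chromosome 10 in the order Slc19a1, Pofut2, Pfkl, Agpat3 and Pdxk. Slc19a1 is on the plus strand at chr10:77032241-77061002 and Pofut2 on the plus strand at chr10:77259218-77269575. Pfkl is on the minus strand at chr10:77986947-78010083, Agpat3 on the minus strand at chr10:78269178-78352489 and Pdxk on the minus strand at chr10:78436744-78464975, where it ends the segment. Slc19a1 overlaps Col18a1 on the opposite strand and Pdxk overlaps 4921516A02Rik, which had 66 and 28 UMIs in all kept cells against 259 and 1195 for the members. Pofut2 overlaps Gm10941, Agpat3 overlaps Gm47992, n-R5s77, Mir7659 and Gm40709, and Pdxk also overlaps Mir6908, with no count given for these here. Whether the counting used strand is not given in the sources used here, and how reads of the overlapping parts were assigned was not examined.

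All 5 members matched an entry of the RefSeq promoter table (GRCm38.p6), which gives 250 bases before and 50 after a start site. The windows of Pfkl, Pdxk and Agpat3 are shown because these genes had the highest level in different cell classes. Capitals mark the GC box GGGCGG, searched on both strands, where CCGCCC is its reverse. The windows are chr10:78009758-78010057 for Pfkl, chr10:78464899-78465198 for Pdxk and chr10:78351651-78351950 for Agpat3, each read 5′ to 3′ on the minus strand.
Pfkl: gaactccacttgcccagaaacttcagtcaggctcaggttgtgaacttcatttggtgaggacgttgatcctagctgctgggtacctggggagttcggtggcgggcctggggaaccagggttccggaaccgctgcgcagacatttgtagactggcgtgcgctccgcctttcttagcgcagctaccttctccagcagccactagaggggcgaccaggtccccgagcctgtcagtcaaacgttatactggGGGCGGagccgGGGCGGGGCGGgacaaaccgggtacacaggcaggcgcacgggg
Pdxk: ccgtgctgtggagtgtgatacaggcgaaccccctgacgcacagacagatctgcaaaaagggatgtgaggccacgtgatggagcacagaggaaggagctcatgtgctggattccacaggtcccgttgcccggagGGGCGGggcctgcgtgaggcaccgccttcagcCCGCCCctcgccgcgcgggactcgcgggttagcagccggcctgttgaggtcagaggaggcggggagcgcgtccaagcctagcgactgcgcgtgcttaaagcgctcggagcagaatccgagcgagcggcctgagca
Agpat3: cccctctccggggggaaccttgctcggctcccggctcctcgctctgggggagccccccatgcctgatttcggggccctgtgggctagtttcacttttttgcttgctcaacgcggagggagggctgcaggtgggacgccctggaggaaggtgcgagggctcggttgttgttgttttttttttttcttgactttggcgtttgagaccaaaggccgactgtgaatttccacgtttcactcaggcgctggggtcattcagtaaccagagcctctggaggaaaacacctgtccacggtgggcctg

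The Pfkl window held 3 GC boxes, with 2 of them overlapping by 1 base, the Pdxk window held 2 and the Agpat3 window held 0. Slc19a1 has 2 windows, with 2 GC boxes in the first (chr10:77032489-77032788) and 0 in the second (chr10:77032962-77033261), and the Pofut2 window (chr10:77259050-77259349) held 1. GGGCGG was present in 35.6% of 32817 promoter windows of this length. None of the members' windows held the letters CCAAT or TATAAA, which were present in 37.4% and 13.6% of windows. The hypoxia response core ACGTG was found in the Pdxk and Agpat3 windows and in 19.6% of all windows, and the match in Pdxk lies inside its E-box CACGTG, which was found in 7.15% of all windows. The GC content of the members' windows ran from 59% in Agpat3 to 68.7% in Pofut2, against a median of 52.7% over all windows. A match of letters is a description of the window and no evidence of binding.

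Counts are of unique molecular identifiers (UMIs), 1 for every RNA molecule caught, and levels are CPM, the count scaled to a common total of UMIs. The 4 libraries held 1012 to 2198 cells after filtering, 6242 in all, and 2917039 to 8837815 UMIs, with WT replicate 1 the shallowest at a median of 2093 UMIs per cell. Clustering gave 15 clusters, of which 10 were named from markers and 8 of those had at least 10 cells in every library. The names stand for microglia-like, oligodendrocyte-like, astrocyte-like, neuron-like, oligodendrocyte precursor-like, endothelial-like, neuroblast-like and ependymal-like cells, with 3 to 7 of each cluster's 10 leading genes among the markers of its class. The endothelial cluster was also led by Vtn and Rgs5, genes of mural cells, the neuroblast cluster, with the markers Igfbpl1, Sox11 and Neurod1, also by the genes of dividing cells Top2a, Hist1h1b, Ube2c, Pclaf and Ccnd2, which outnumber those markers, and the neurons had a median mitochondrial share of 27.82%. The ependymal class had 125 cells, 58 of them in WT replicate 1. The other 3 tested clusters had no name, and 8 cell barcodes were shared between pairs of libraries. A summed level rises with the number of cells of a class and with RNA per cell, which cannot be told apart in values for all cells.

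The class in which each gene was highest differed among the members. Pdxk was highest in endothelial cells, Agpat3 in astrocytes, Slc19a1 in endothelial cells, and Pfkl and Pofut2 in ependymal cells, and each of these classes ranked first among the 8 named classes in 4 of 4 libraries. These levels are given as a description over libraries of both genotypes, without a test between classes. No profile of empty droplets was analysed here, so levels near the lowest of a gene are not read as expression.

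Pdxk had 253.7 CPM in endothelial cells of WT replicate 1 and 186.1 CPM in those of WT replicate 2, and 261.5 and 269 CPM in those of Dp2Yey replicates 1 and 2. All 4 values lay above every library's value in every other tested cluster, and the mean of 242.6 ± 38.2 CPM (SD, n = 4) was 2.81 times that of oligodendrocytes, the next class, at 86.5 CPM. Neurons (68.7 CPM), ependymal cells (53.8 CPM) and oligodendrocyte precursors (45.2 CPM) came next, and their library ranges overlapped each other and that of oligodendrocytes. Astrocytes had 22.4 CPM, microglia 14.5 CPM and neuroblasts 7.77 CPM, the last resting on 6 UMIs. Because oligodendrocytes were more numerous, they held 39.3% of all Pdxk UMIs with 15.5% of the cells, endothelial cells held 19.8% with 4.26% of the cells, and microglia held 11.1% with 32.2% of the cells.

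Agpat3 had 234.8 and 304.5 CPM in astrocytes of the WT libraries and 387 and 459.9 CPM in those of the Dp2Yey libraries. The lowest of these lay above every library's value in every other tested cluster, with a mean of 346.6 CPM against 149.7 CPM in oligodendrocytes. Below astrocytes the order was flat, with 137 CPM in oligodendrocyte precursors, 132 CPM in neurons, 124 CPM in ependymal cells and 106 CPM in endothelial cells, all overlapping over libraries. Microglia had 84.6 CPM and neuroblasts 70.5 CPM. Astrocytes were small in RNA content here, with a median of 1607.5 UMIs per cell, and counted as UMIs per cell the mean over libraries was 0.862 times that of ependymal cells. Astrocytes were above ependymal cells per cell in 2 of 4 libraries, and pooled over libraries they had 88.8 UMIs per 100 cells against 85.6, so the order of these classes per cell was not settled. Astrocytes held 24.6% of Agpat3 UMIs with 8.89% of all UMIs, while oligodendrocytes held 25.1% and microglia 23.1%.

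Pfkl was highest in ependymal cells, at 92.65 and 149.3 CPM in the WT libraries and 134 and 157 CPM in the Dp2Yey libraries. The mean of 133 CPM was 1.52 times that of neurons, the next named class, at 87.9 CPM, and the 2 ranges overlapped. An unnamed tested cluster led by Ttr lay between them, with 97.8 CPM (53.44 to 141.5 CPM). In WT replicate 1 it had 141.5 CPM, above the 92.65 CPM of ependymal cells. Endothelial cells followed with 71.0 CPM and a narrow range of 65.15 to 78.6 CPM, then astrocytes with 45.2 CPM, microglia with 40.1 CPM and neuroblasts with 33.5 CPM. The oligodendrocyte lineage was at the low end, with 23.2 CPM in precursors and 16.7 CPM in oligodendrocytes (ependymal cells stood 7.999-fold higher). Microglia, the most numerous class, held 33.8% of Pfkl UMIs, close to their 36.4% of all UMIs, and oligodendrocytes held 7.88% with 22.1% of all UMIs.

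Slc19a1 was the sparsest member, with 259 UMIs in all. Endothelial cells had 40.36 and 31.02 CPM in the WT libraries and 107 and 63.48 CPM in the Dp2Yey libraries, resting on 7, 10, 18 and 21 UMIs. Ependymal cells (22.5 CPM) and astrocytes (18.9 CPM) followed with ranges that overlapped each other, and the upper end of the ependymal range, 34.0 CPM, overlapped that of endothelial cells. Oligodendrocyte precursors had 11.5 CPM, microglia 7.22 CPM, neuroblasts 5.38 CPM, oligodendrocytes 5.15 CPM and neurons 4.53 CPM, the last resting on 7 UMIs. Endothelial cells held 21.6% of Slc19a1 UMIs with 4.26% of the cells, and microglia held 27.0%.

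Pofut2 was the most even member. Ependymal cells had 71.27 and 71.39 CPM in the WT libraries and 143.6 and 162.2 CPM in the Dp2Yey libraries, and oligodendrocyte precursors, at 81.6 CPM, overlapped them. Endothelial cells (48.7 CPM), oligodendrocytes (46.3 CPM), astrocytes (39.7 CPM), neuroblasts (38.4 CPM) and microglia (37.6 CPM) had ranges that overlapped one another. Neurons were lowest of the named classes at 24.0 CPM, 4.68-fold under ependymal cells, and the unnamed cluster led by Tyrobp and Cst3 had 17.2 CPM. Microglia held 29.2% of Pofut2 UMIs, oligodendrocytes 22.7% and oligodendrocyte precursors 12.4%. In the WT libraries alone the same class led among the named classes for each of the 5 members, and a few lower places differed. There endothelial cells (70.1 CPM of Pfkl) stood above neurons (55.7 CPM), ependymal cells (119.6 CPM of Agpat3) above oligodendrocytes (111.5 CPM), and astrocytes (19.6 CPM of Slc19a1) above ependymal cells (13.6 CPM). In WT replicates 1 and 2 the unnamed cluster led by Ttr had 141.5 and 102.9 CPM of Pfkl. Ependymal cells had 92.65 and 149.3 CPM, so these clusters overlapped. The plot of levels by class shows every library, and the plot of UMI shares shows which classes make up each gene's total.

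**Figure D1:**
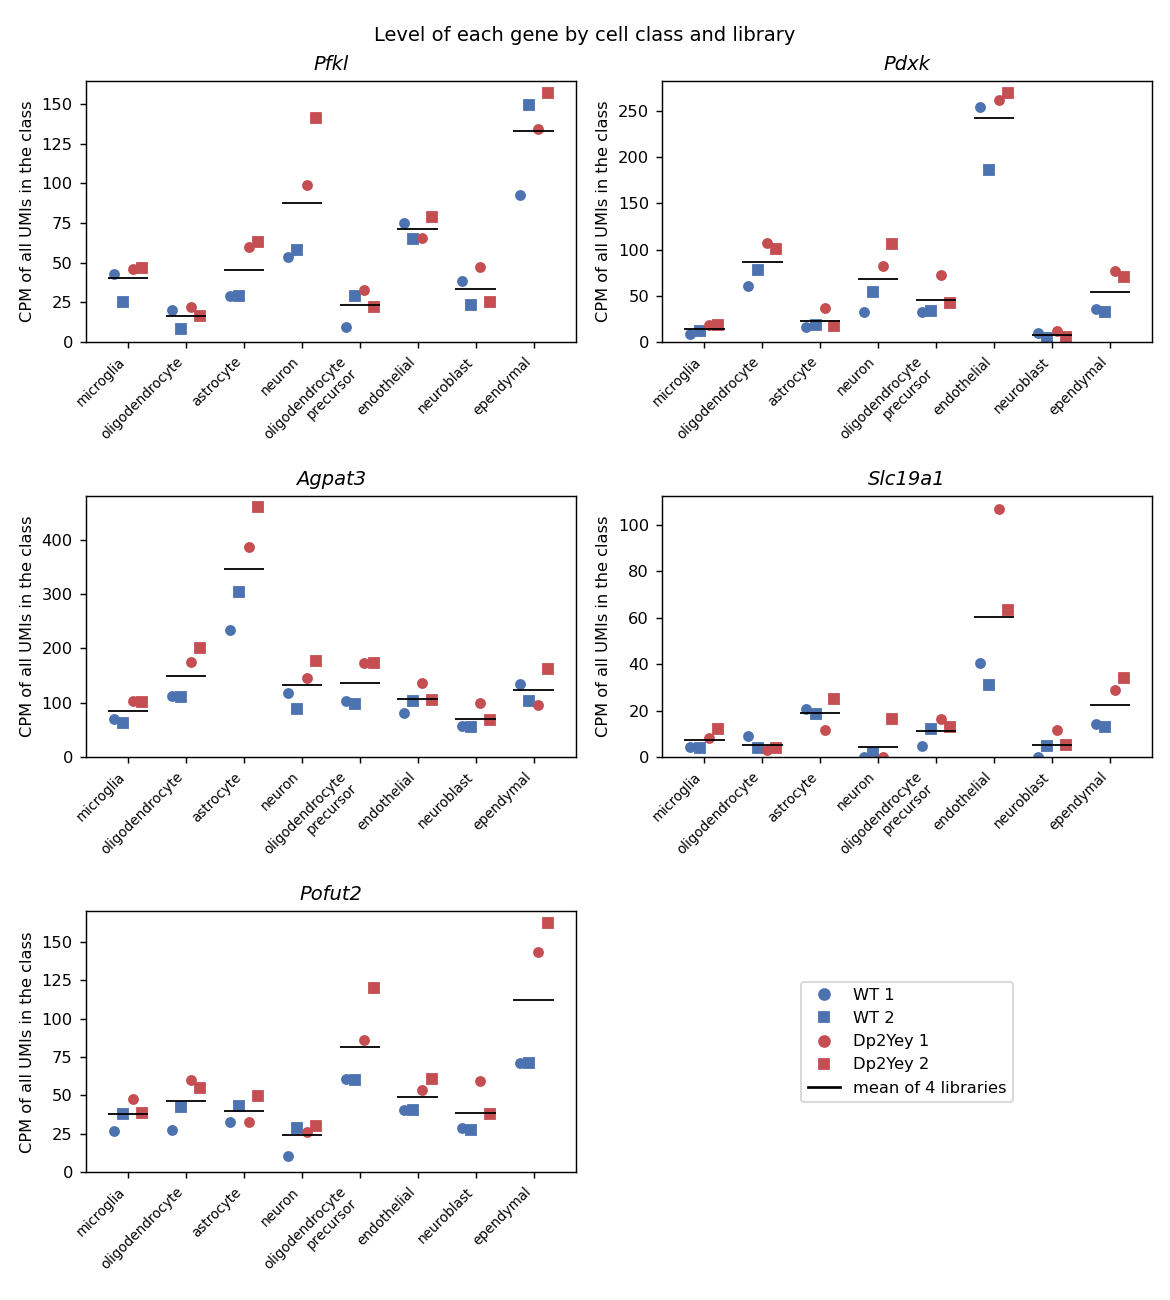
CPM of each gene (vertical axis, from 0) in the 8 named classes (horizontal axis). Points are libraries, blue for WT and red for Dp2Yey, and bars are means of 4 libraries. Pdxk in endothelial cells (186.1 to 269 CPM) and Agpat3 in astrocytes (234.8 to 459.9 CPM) stand apart from the other classes.

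**Figure D2:**
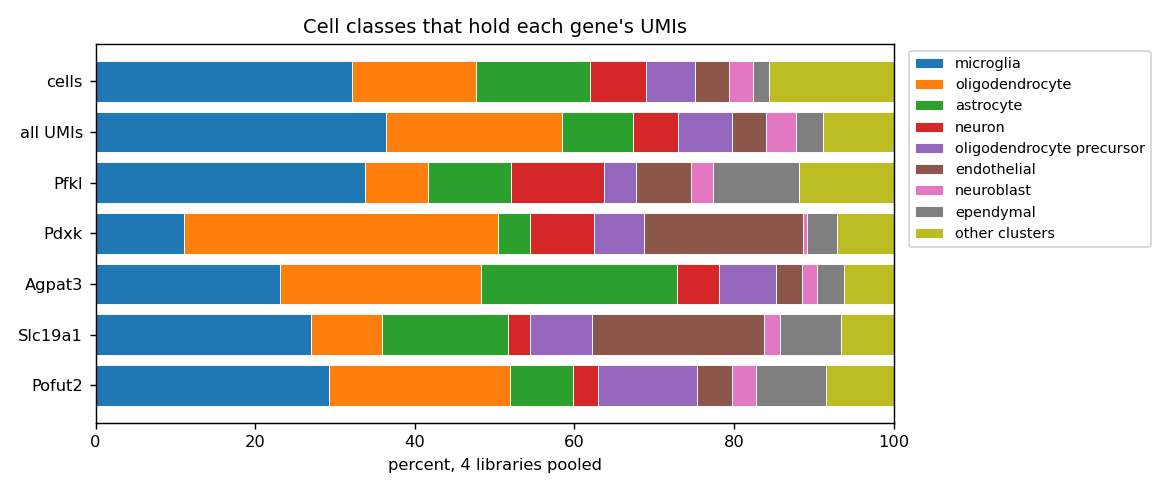
Percent (horizontal axis) of cells, of all UMIs and of each gene's UMIs that each class holds, with 4 libraries pooled. Oligodendrocytes hold 39.3% of Pdxk UMIs but 7.88% of Pfkl UMIs, and endothelial cells hold 21.6% of Slc19a1 UMIs with 4.26% of the cells.

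The closest relatives of the members, encoded outside the segment, shared the member's leading class in some cases and not in others. Pfkm and Pfkp were highest among named classes in astrocytes, at 194 and 99.7 CPM, whereas microglia had 2.16 CPM of Pfkm. Agpat4 was highest in oligodendrocytes at 477 CPM, and Agpat5, like Agpat3, was highest in astrocytes at 368 CPM. The thiamine carrier Slc19a3 shared the endothelial peak of Slc19a1, with 68.7 CPM there and 64 of its 65 UMIs. Pdxp, which removes the phosphate that pyridoxal kinase adds, was highest in neurons at 114 CPM. Pofut1 was highest in astrocytes at 30.8 CPM.

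Genes with the most similar profile were ranked by Pearson's r of log2(mean CPM + 10) over the 11 tested clusters, among 7033 genes. These points share the libraries and differ in depth, and r is given as a description. Agpat3 was most similar to Scap (r = 0.93), which escorts the sterol-regulated transcription factors, Ttyh1 (r = 0.92) and Sc5d (r = 0.92), an enzyme of cholesterol synthesis. Slc19a1 was most similar to Wwtr1 (r = 0.96), Prom1 (r = 0.94) and the zinc exporter Slc30a1 (r = 0.94). Pdxk was most similar to Slc9a3r2, Jcad and Mkl2 (r = 0.89, 0.88 and 0.87), Pfkl to Znhit2, Anxa11 and Pkm (r = 0.87, 0.86 and 0.83), of which Pkm encodes pyruvate kinase of the same pathway, and Pofut2 to Ap1m1, Tcp11l2 and Mfap1b (r = 0.88, 0.87 and 0.87).

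Summed over all cells, both Dp2Yey libraries lay above both WT libraries for 5 of 5 members. Over all 13876 genes tested, 12.8% had that order. Levels between genotypes are CPM after TMM scaling (a trimmed mean that corrects library totals), and the ratio is the fitted value of edgeR's quasi-likelihood model with its 95% interval. Agpat3 had 100.6 and 100.7 CPM in the WT libraries and 164.2 and 161.5 CPM in the Dp2Yey libraries, with a ratio of 1.62 (1.32 to 1.98) and every pair of libraries between 1.60 and 1.63. Pfkl had 39.13 and 30.53 CPM against 48.96 and 50.75 CPM, a ratio of 1.46 (1.12 to 1.89). The 2 Dp2Yey values of both genes lay closer together than their distance to the nearest WT value.

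Pofut2 had 31.58 and 40.41 CPM in the WT libraries and 56.5 and 54.08 CPM in the Dp2Yey libraries, a ratio of 1.51 (1.17 to 1.95). Slc19a1 had 8.58 and 6.88 CPM against 12.04 and 14.33 CPM, and the largest ratio of the members at 1.75 (1.16 to 2.67). Pdxk had 39.48 and 46.84 CPM against 61.2 and 51.86 CPM, and the smallest at 1.29 (1.003 to 1.67). All 5 intervals included 1.5 and their lower ends lay above 1.

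No member passed a threshold of 0.01 on the adjusted p, the value that the study used. The study applied it to tests over single cells within clusters, whereas counts here were summed per mouse. By edgeR's quasi-likelihood test with Benjamini-Hochberg adjustment over all genes, adjusted p was 0.863 for Agpat3 and 1 for the other members, and 0% of the genes tested passed. The unadjusted p was 0.00049 for Agpat3, 0.0055 for Pofut2, 0.0099 for Pfkl, 0.014 for Slc19a1 and 0.048 for Pdxk by the same edgeR test, so that 5 of 5 were under 0.05 with a higher level in Dp2Yey, against 1.1% of all genes. That count was 3 under DESeq2, 4 with the replicate block or without doublets, and 3 to 4 with each library left out, with 3 without WT replicate 2. DESeq2 left 0 members past the adjusted threshold as well. Without a filter on low counts, adjusted p for Agpat3 was 0.0032 by the edgeR test. These p-values measure the spread between mice with 1 library each, and an exact permutation test of 2 against 2 libraries cannot go below 0.33.

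The ratio of Pdxk was higher when the mix of clusters was held fixed. Endothelial cells, where Pdxk was highest among the tested clusters, made up 4.79% of WT cells and 3.86% of Dp2Yey cells. Oligodendrocytes made up 16.3% of WT cells and 14.9% of Dp2Yey cells, but the libraries overlapped. A cluster of 22 cells led by Mgp, with no name and 0 cells in Dp2Yey replicate 1, held 30 Pdxk UMIs, 21 of them in WT replicate 2. Pooled over libraries, the Mgp cluster had 229.3 CPM of Pdxk against 238.2 CPM in endothelial cells, and it was not tested. In summed counts the Pdxk ratio was 1.25 over all cells, 1.30 without the Mgp cluster, 1.34 without endothelial cells and 1.42 without both. The count ratio within endothelial cells was 1.27, so leaving them out also removed a class with a low ratio. With the mix of clusters held fixed (a Mantel-Haenszel ratio over clusters, chosen after seeing the data) it was 1.44. For Pfkl, Agpat3, Slc19a1 and Pofut2 the same calculation moved the count ratio less, from 1.53 to 1.56, 1.63 to 1.59, 1.84 to 1.89 and 1.47 to 1.46.

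**Figure D3:**
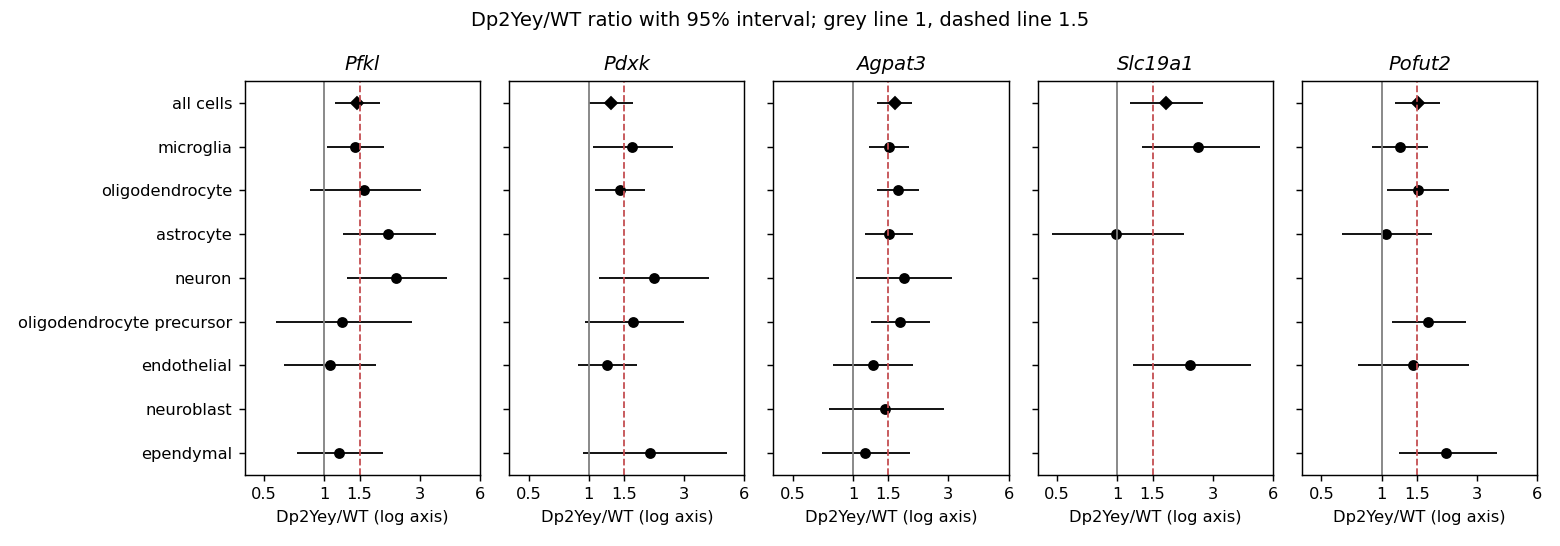
Dp2Yey/WT ratio of each gene (horizontal log axis) in all cells (diamonds) and in each named class where it was tested (circles). Lines are 95% intervals, the grey line is 1 and the dashed line is 1.5. Every interval crosses the dashed line.

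Within clusters, 31 of the 55 pairs of a member and a tested cluster had enough UMIs for the test. The fitted ratio was above 1 in 30 of them, with a median log2 ratio of 0.61 and a range from −0.02 to 1.34. Of all genes tested, 4581 of 9097 had a ratio above 1 in microglia and 4242 of 8613 in oligodendrocytes. Both Dp2Yey libraries lay above both WT libraries in 22 pairs and below them in 0, and over all genes and tested clusters 15.5% of tests had both above. All 31 intervals included 1.5. In 16 pairs the interval lay above 1, equivalent to an unadjusted p under 0.05 with a higher level in Dp2Yey, which 1.83% of all tests reached. The other 15 intervals included both 1 and 1.5 and so cannot tell these ratios apart. No pair passed an adjusted p of 0.01 by edgeR's quasi-likelihood test, or by DESeq2, and 0.028% of all tests in clusters did. Of the 24 pairs with too few UMIs, 20 had a count ratio above 1, some on 0 or 1 WT UMIs, and this count is a description only.

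Microglia, the class with the most cells and the most UMIs in all, gave a ratio for each member. Agpat3 had 70.29 and 65.51 CPM in WT and 103.8 and 100.7 CPM in Dp2Yey microglia, a ratio of 1.51 (1.20 to 1.91). Pfkl had 42.71 and 26.03 CPM against 46.33 and 46.26 CPM, a ratio of 1.42 (1.03 to 1.98), and Pdxk, at 8.90 and 12.56 CPM against 18.18 and 18.74 CPM, a ratio of 1.65 (1.05 to 2.63). Slc19a1 had the largest ratio of the tested pairs, 2.54 (1.34 to 5.20), on 14 WT and 56 Dp2Yey UMIs. Mean levels of Slc19a1 and Pdxk in microglia, 7.22 and 14.5 CPM, lay under those in all cells, 10.45 and 49.7 CPM. The share of background in these counts was not measured. The libraries overlapped only for Pofut2, with 26.69 and 39.04 CPM against 47.51 and 38.36 CPM and a ratio of 1.23 (0.896 to 1.70). Both Dp2Yey libraries were thus above both WT libraries for 4 of 5 members in microglia, against 14.8% of the genes tested there.

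In oligodendrocytes, which held the largest share of Pdxk UMIs, Pdxk had 60.8 and 79.87 CPM in the WT libraries and 106.8 and 101.7 CPM in the Dp2Yey libraries, a ratio of 1.43 (1.07 to 1.91). Agpat3 had 112.4 and 113.5 CPM against 175.3 and 203.4 CPM, a ratio of 1.68 (1.32 to 2.13) with an adjusted p of 0.226 by the edgeR test, which was 0.0033 without Dp2Yey replicate 1. That fit has 1 Dp2Yey library, whose spread is assumed to be like that of the WT pair, and it made 217 calls of all genes over clusters against 14. The ratio of Pofut2 was 1.52 (1.07 to 2.18) and that of Pfkl 1.58 (0.843 to 3.04), whose libraries overlapped. The order of both above was seen in 3 of 4 members tested, against 14.2% of genes. Slc19a1 had 12 WT and 11 Dp2Yey UMIs there and was not tested.

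In oligodendrocyte precursors, 3 of 4 members tested had both Dp2Yey libraries above both WT libraries, against 15.9% of genes. Agpat3, with 107.5 and 105.7 CPM against 181.7 and 183.5 CPM, had a ratio of 1.71 (1.23 to 2.42), and Pofut2, with 63.53 and 64.45 CPM against 90.85 and 126.9 CPM, also had 1.71 (1.13 to 2.65). The intervals of Pdxk (1.67, 0.963 to 2.999) and Pfkl (1.22, 0.572 to 2.73) included 1.

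In astrocytes 4 members were tested, and differences between members were not. Agpat3, which was highest in this class, had 247.6 and 325.7 CPM in WT and 412.4 and 466.6 CPM in Dp2Yey astrocytes, a ratio of 1.51 (1.14 to 2.00). Pfkl had 30.41 and 30.81 CPM against 63.92 and 63.9 CPM, a ratio of 2.08 (1.24 to 3.62). The ratios of Pofut2 and Slc19a1 were close to 1, at 1.05 (0.632 to 1.78) and 0.985 (0.470 to 2.15), on 88 and 41 UMIs, and their intervals also included 1.5. Dp2Yey replicate 1 had 35.05 CPM of Pofut2 and 12.37 CPM of Slc19a1, and Dp2Yey replicate 2 had 50.64 and 25.32 CPM, against 34.75 and 46.21 CPM of Pofut2 and 21.72 and 19.81 CPM of Slc19a1 in the WT libraries. The genotypes overlapped for both genes, and for Slc19a1 the Dp2Yey libraries lay on both sides of the WT pair. Both above held for 2 of 4 members tested, against 16.2% of genes.

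Neurons had the highest median ratio of the classes with several members tested, 2.12 over 3 members. Pfkl had 57.76 and 58.18 CPM in WT and 140 and 128.4 CPM in Dp2Yey neurons, a ratio of 2.29 (1.29 to 4.11). Pdxk had 34.65 and 54.55 CPM against 116.7 and 96.28 CPM, a ratio of 2.12 (1.13 to 4.01), and Agpat3 had 127.1 and 89.09 CPM against 205.3 and 160.5 CPM, a ratio of 1.80 (1.04 to 3.12). Both above held for 3 of 3, against 16.6% of genes. Other genes of glycolysis, which have 2 copies in both genotypes, also had a median log2 ratio of 0.36 in neurons, with both above for 11 of 17 tested and 0 past the adjusted threshold, whereas the median of all genes there was 0.02. The vitamin B6 genes did likewise, with a median of 0.36, both above for 6 of 11 tested and 0 past the threshold. Neurons were the class with the highest mitochondrial share, with library medians of 29.99% and 25.17% in WT and 33.53% and 17.42% in Dp2Yey. With cells over 20% mitochondrial UMIs removed, 13 and 64 WT and 26 and 53 Dp2Yey neurons were left, and the ratio was 2.45 for Pfkl, 2.42 for Pdxk and 1.17 for Agpat3. At a resolution of 0.5 the neurons split into a named cluster of 121 cells with a median mitochondrial share of 6.96% and an unnamed one of 311 cells with 32.78%, and the ratios in the named cluster, which held 17 and 51 WT cells but 11 and 42 Dp2Yey cells, were 2.395 for Pfkl, 1.60 for Pdxk and 1.295 for Agpat3. Of the 143 neurons of Dp2Yey replicate 1, 132 lay in the unnamed cluster, so the libraries are split differently over these clusters. The ratio of Pfkl was as large in the neurons with fewer mitochondrial UMIs, and that of Agpat3 was smaller.

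In endothelial cells Slc19a1 had 44.56 and 35.12 CPM in WT and 120.7 and 70.77 CPM in Dp2Yey libraries, a ratio of 2.31 (1.20 to 4.68). Pdxk, at its highest level of any tested cluster, had 280.1 and 210.7 CPM against 295.2 and 299.9 CPM, a ratio of 1.24 (0.883 to 1.74). Agpat3 (1.26, 0.798 to 1.99), Pofut2 (1.43, 0.763 to 2.73) and Pfkl (1.06, 0.625 to 1.82) had intervals that included 1 and 1.5. Both above held for 4 of 5 members, against 16.5% of genes.

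Ependymal cells gave Pofut2 a ratio of 2.11 (1.23 to 3.78), with 89.61 and 90.3 CPM in WT and 187.3 and 191.6 CPM in Dp2Yey libraries. Pdxk had 2.03 (0.935 to 4.89), Pfkl, which was highest in this class, 1.19 (0.726 to 1.96), and Agpat3 1.15 (0.697 to 1.92). Both above held for 2 of 4 members, against 15.4% of genes. In neuroblasts Agpat3 was the only member tested, with a ratio of 1.44 (0.759 to 2.84) and both Dp2Yey libraries above, an order that 14.8% of genes had. It was also the only member tested in the unnamed cluster led by Tyrobp and Cst3, where its ratio was 1.54 (0.664 to 3.81) and the libraries overlapped. There its log2 ratio of 0.62 ran from 0.073 without Dp2Yey replicate 2 and 0.085 without WT replicate 2 to 1.245 without WT replicate 1.

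Read by gene, the median ratio over tested clusters was 1.42 for Pfkl in 7 clusters, 1.66 for Pdxk in 6, 1.51 for Agpat3 in 9, 1.47 for Pofut2 in 6 and 2.31 for Slc19a1 in 3. Pdxk had both Dp2Yey libraries above both WT libraries in 6 of 6 tested clusters, Agpat3 in 7 of 9, Pofut2 in 4 of 6, Slc19a1 in 2 of 3 and Pfkl in 3 of 7, against 15.5% of all tests in clusters. Agpat3 had the tightest range, from 1.15 to 1.80, and Pfkl ran from 1.06 in endothelial cells to 2.29 in neurons. The difference of the ratio between the 8 named classes was tested in one edgeR quasi-likelihood model with a term for class by genotype. The p was 0.44 for Pfkl, 0.80 for Pdxk, 0.80 for Agpat3, 0.28 for Slc19a1 and 0.71 for Pofut2, all with adjusted p of 1, and 0.272% of 11411 genes passed 0.01. The classes' ratios of a member were therefore not told apart by these libraries, which does not show that they are equal.

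Along the segment, the members lay among their neighbours. Their median log2 ratio in all cells was 0.60, and that of the 26 other segment genes tested, of 57, was 0.57, with 24 above 0 and both Dp2Yey libraries above both WT libraries in 23. The flanks of 2 Mb held 68 tested genes with a median of 0.06, and all genes −0.004. Ranked from the lowest of the 31 segment genes tested, Pdxk was number 4, Pfkl 11, Pofut2 17, Agpat3 24 and Slc19a1 29. The lowest segment gene was Col6a1, at −2.02, one of the leading genes of the Mgp cluster, and the highest was 1810043G02Rik at 0.95. Rrp1, which lies between Agpat3 and Pdxk, had 0.69 and Cstb, next to Pdxk, 0.57.

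**Figure D4:**
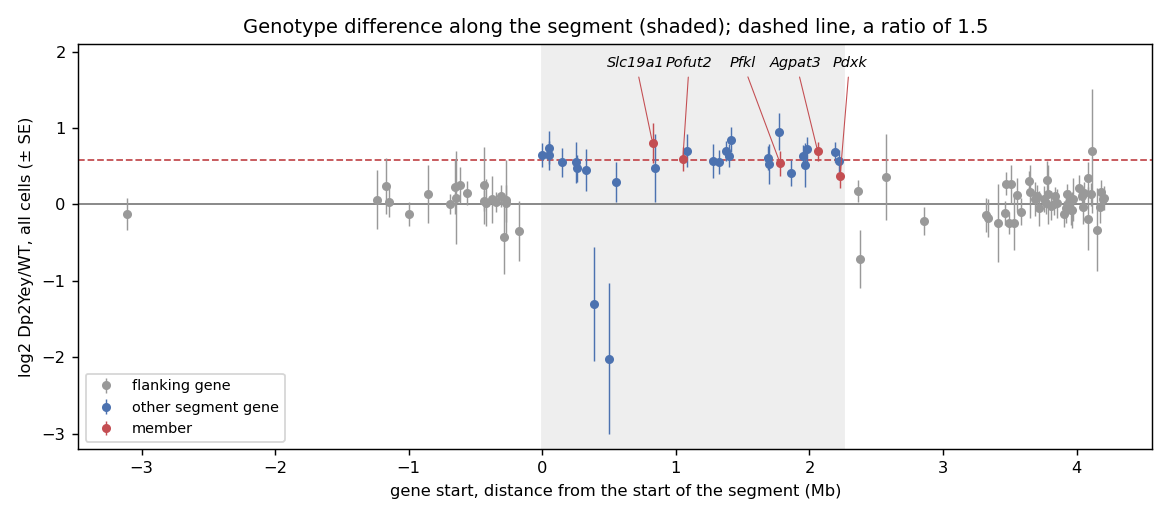
Log2 Dp2Yey/WT ratio in all cells (vertical axis, points with SE) against the start of each gene as distance from the start of the segment in Mb (horizontal axis). Red points are the members, blue points other segment genes and grey points flanking genes, and the dashed line is a ratio of 1.5. The members lie between 0.37 and 0.81, and flanking genes have a median of 0.06.

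The relatives of the members, which are not duplicated, served as a comparison outside the segment. Their 11 genes had a median log2 ratio of 0.09, with 0 under an unadjusted p of 0.05 and 0 past the adjusted threshold by edgeR's quasi-likelihood test. Pfkm had 27.81 and 26.34 CPM in WT and 37.13 and 29.99 CPM in Dp2Yey libraries (log2 ratio 0.30 ± 0.17 SE), and Pfkp had 0.19 ± 0.21. Agpat4 (0.12 ± 0.15), Agpat5 (0.19 ± 0.13), Agpat1 (−0.04 ± 0.18) and Agpat2 (0.35 ± 0.27) lay under Agpat3 (0.69 ± 0.13). Pdxp (0.04 ± 0.19), Pofut1 (0.09 ± 0.21), Slc19a2 (−0.61 ± 0.45) and Slc19a3 (−0.64 ± 0.51) spread around 0, the last pair on 67 and 65 UMIs.

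Other genes of the members' pathways had median log2 ratios near 0 in all cells, and none passed the adjusted threshold of edgeR's quasi-likelihood test in all cells or in any tested cluster. Over all genes, 2.71% had an unadjusted p under 0.05 in either direction. Of 27 glycolysis genes tested of 34, 2 did, Aldoc, the brain aldolase (0.41 ± 0.14), and Eno1, an enolase (0.45 ± 0.18), and the list's median was 0.07. Gapdh, the most abundant, had 0.18 ± 0.13 and Aldoa 0.11 ± 0.15. The 31 genes of vitamin B6 use had a median of 0.03 and 0 under 0.05, with Psat1 at 0.09 ± 0.22, Odc1 at −0.05 ± 0.16 and Oat at 0.15 ± 0.14. The 31 genes of glycerolipid acyl transfer had a median of −0.05 and 1 under 0.05, Plpp3, a lipid phosphatase (0.37 ± 0.13), and their most abundant others were Lpcat2 (0.06 ± 0.15) and Agpat4.

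The folate list had 26 genes tested, with a median of 0.08, and also holds the thiamine carriers Slc19a2 and Slc19a3. In it 1 gene was under 0.05, the thymidylate synthase Tyms (0.84 ± 0.28). Tyms had 6.18 and 5.99 CPM in WT and 12.04 and 9.88 CPM in Dp2Yey libraries. Ggh (0.09 ± 0.13), Gcsh (−0.06 ± 0.15) and Mthfs (0.11 ± 0.14) were the list's most abundant. Among 28 genes of O-fucose transfer and its protein substrates, with a median of −0.01, 1 was under 0.05, Adamts1, a secreted protease with thrombospondin repeats (−0.32 ± 0.14), at 193.3 and 193.1 CPM in WT and 168.7 and 142 CPM in Dp2Yey libraries. Fuca1 (0.15 ± 0.14) and Notch1 (0.03 ± 0.17) were the other abundant ones. The plot of pathway genes sets these lists beside the members and the other segment genes.

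**Figure D5:**
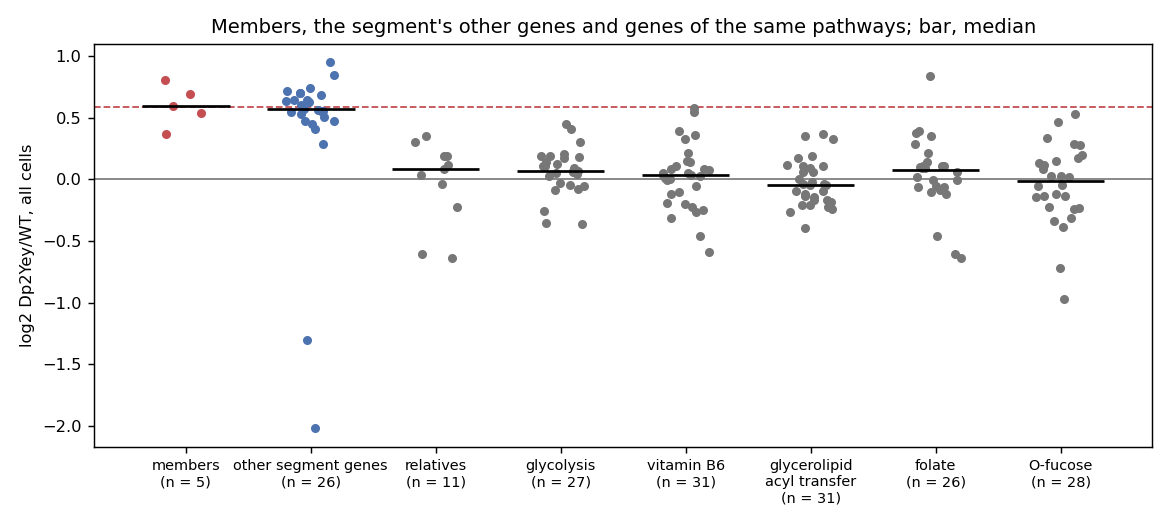
Log2 Dp2Yey/WT ratio in all cells (vertical axis) of single genes (points) by group (horizontal axis), with bars at group medians and the dashed line at a ratio of 1.5. The medians are 0.60 for the members and 0.57 for other segment genes, and those of relatives and pathway lists run from −0.05 to 0.09.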

How the data were processed

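For each of the 4 libraries the authors deposited raw UMI counts per gene and barcode, not normalized, as Cell Ranger 3.0.2 gave them against an mm10 (GRCm38) reference for barcodes called as cells. Dissociated cells and a 3′ assay were used, so a count is one tagged molecule and does not scale with gene length. Counting by strand is not given in the sources used here.

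Barcodes with at least 200 genes were kept (6281 of 6464), as were genes in more than 3 cells (17535), following the study. Red blood cells, taken as cells with over 10% globin UMIs after the data were seen, were removed (39 cells), which left 6242. Cells were clustered in Seurat 5.3.0 (R 4.3.3) with 2000 variable genes, integration of the libraries by canonical correlation, 50 dimensions and a resolution of 0.2, and Pdxk was the 1 member among the integration genes. Clusters took a class name when 3 or more markers of that class stood among the 10 genes with the highest fold against all other cells (10 CPM added). Names may differ from the study's because they were rebuilt. Scrublet in scanpy 1.11.5 called 52 doublets (0.833%), which were kept in the main analysis.

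Counts were summed per library over all cells and per cluster that had 10 or more cells from each library, then fitted with edgeR 4.0.16 (filterByExpr, TMM, quasi-likelihood test, genotype as the 1 term, Benjamini-Hochberg adjustment over all genes tested, threshold 0.01 as in the study). Ratios have 95% intervals from the same model, taken as the ratios not refused at 0.05. The class by genotype term was fitted over the 8 named classes with library as a block. Levels of classes are CPM of all UMIs in the class without TMM. The fit was tested on simulated data, where it recovered known folds on average, although a 1.5-fold change seldom passed the threshold. Those counts were drawn from the kind of distribution that the fit assumes, with a fixed spread that was not estimated from these mice. The genes changed there were not sparse, so the simulation is a check of the code and does not cover pairs with few UMIs.

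The genes named are the members, their relatives by family or step, the 3 most abundant genes of each pathway list and any past the threshold, the 3 most similar profiles per member and the lowest and highest segment gene, and 1 relative is not reported here. Pathway genes with an unadjusted p under 0.05, and Rrp1 and Cstb, were named after their values were seen. The members and lists were chosen with earlier results of these data known. Alternatives were DESeq2 1.42.0, no filter on low counts, RLE size factors, a replicate block, each library left out, doublets or cells over 20% mitochondrial UMIs removed, all barcodes, a resolution of 0.5, clustering without segment genes, UMIs per cell, classes with at least 50 cells in every library, and, added after seeing the data, a fixed mix of clusters.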

Additional observations from a re-analysis of the deposited data

How the results depend on the processing

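The median log2 ratio of the 5 members in all cells was 0.60, stayed at 0.59 to 0.61 under DESeq2, no filter on low counts, RLE size factors, removal of doublets or of cells over 20% mitochondrial UMIs, and all barcodes, was 0.64 with the mix of clusters held fixed, and ran from 0.57 to 0.70 with each library left out. Over tested pairs of members and clusters it was 0.61, 0.55 without cells over 20% mitochondrial UMIs, and 0.57 to 0.77 with each library left out. The share of pairs above 0 ran from 85.3% to 97.1% with each library left out, against 96.8%.

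Without a filter on low counts 1 member, Agpat3, passed the adjusted threshold in all cells, where 72 genes passed against 0 with the filter. With each library left out, 0 to 1 pairs passed, Agpat3 in oligodendrocytes at a log2 ratio of 0.85 without Dp2Yey replicate 1. Calls of all genes summed over clusters were 14 and moved from 6 under DESeq2 to 268 without Dp2Yey replicate 2. The causes were not tested. The count of members whose ratio differed between classes was also 0 among classes with at least 50 cells in every library. Its other alternatives each left out 1 library, and no count is drawn from those.

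Some ratios whose intervals included 1 changed sign. Slc19a1 in astrocytes, at −0.02, was 0.012 without the filter, 0.12 without cells over 20% mitochondrial UMIs, 0.10 at a resolution of 0.5, and −0.70 to 0.31 with each library left out. Pofut2 in astrocytes was −0.093 at a resolution of 0.5 and −0.25 to 0.36 with each library left out. With each library left out, Pfkl ran from −0.080 to 1.17 in oligodendrocytes, −0.12 to 1.52 in precursors, −0.078 to 0.18 in endothelial cells and −0.037 to 0.66 in ependymal cells, and Agpat3 from −0.25 to 0.40 in ependymal cells. Agpat3 in astrocytes against the highest other class was −0.22 on the log2 scale in UMIs per cell. Ratios with the mix of clusters held fixed had no test, so only their direction counts here. Of 277 recomputed Dp2Yey/WT ratios of single members, 272 kept their direction and, where tested, their side of the threshold, and 4 reversed. With a library left out, 132 of 143 kept both and 10 reversed.

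Replicate numbers are shared between genotypes, but same-numbered libraries deviated with a correlation of 0.03 over 6819 genes, and the numbers were not used as pairs. With 2 libraries per genotype, this correlation cannot decide whether same-numbered libraries share a preparation day. The study prepared cells on 2 days, a mouse of each genotype on each, but the sources used here do not tie numbers to days. With the replicate block the members' median was 0.61 in all cells and 0.60 over pairs, 0 members passed, and 66 calls of all genes were made over clusters against 14. By the edgeR test with the block, adjusted p for Agpat3 was 0.019 in microglia and 0.015 in oligodendrocytes, against 0.759 and 0.226 without it. In all cells it was 0.9999 with the block, against 0.863.

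With 2 mice per genotype, intervals of single classes commonly spanned both 1 and 1.5, and the 24 untested pairs were described by count ratios only.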
